A study of Mus musculus with 33 samples.

Results

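The early course of the lung miRNA profile after carbon black was followed by comparing lungs taken 3 days after instillation (4 mice) with lungs taken 1 day after it (6 mice). These 10 arrays were chosen by treatment and day from the sample labels, out of 33 arrays in the series, and the comparison covers the 611 mouse miRNAs on the array. All mice were female, non-pregnant C57BL/6, a common inbred strain, and each array holds the lung RNA of 1 mouse. The exposed mice were given 0.162 mg of Printex 90 once, by instillation into the trachea. Printex 90 is a carbon black powder of nanosized particles. The particles were carried in saline (0.9% NaCl) to which 10% lavage fluid freed of cells had been added. Vehicle mice received that fluid without particles, so vehicle lungs share the instillation and the lavage fluid, and 6 of them at day 1 and 6 at day 3 gave the background for the course. The design text names 6 mice in each group, and 4 arrays of exposed lungs at day 3 were analysed here.

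A miRNA is a short RNA that guides an Argonaute protein to messenger RNAs carrying a match to its seed, the stretch from base 2 to base 8, and so lowers the output of those messages. Most miRNAs are cut from a hairpin precursor, of which 1 arm usually accumulates and the other (the passenger strand, marked with an asterisk in older names) is mostly degraded. Some miRNAs are made in so few cell types that their level in a tissue follows those cells. miR-223 is abundant in neutrophils and macrophages, miR-142 in all blood cell lineages, miR-144 and miR-451 in red cells, the miR-200 family in epithelium, miR-34b, miR-34c and miR-449 in multiciliated airway cells, and miR-1 and miR-133 in heart and skeletal muscle. In whole lung tissue, fewer cells of a type and less of the miRNA per cell cannot be told apart.

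Mature sequences are shown first for the miRNAs of smallest p, 5 on the lower and 4 on the higher side, since these carry the comparison, with the seed in capitals. They are written 5′ to 3′ from RefSeq (GRCm38.p6). Of the 171 mouse miRNAs tested, 26 matched that table under the array's own name and 17 through a named arm. The following had lower mean signals at day 3 than at day 1.
miR-223 (chrX:96242884-96242905, plus strand): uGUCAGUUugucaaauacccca
miR-139-5p (chr7:101475382-101475403, plus strand): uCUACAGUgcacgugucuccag
miR-1224 (chr16:20604452-20604472, plus strand): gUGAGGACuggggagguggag
miR-155 (chr16:84714143-84714165, plus strand): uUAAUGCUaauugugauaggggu
miR-7a (from 2 loci): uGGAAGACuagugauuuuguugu
The next 4 had higher mean signals at day 3.
miR-449a (chr13:113037549-113037570, plus strand): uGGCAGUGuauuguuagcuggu
miR-181b (from 2 loci): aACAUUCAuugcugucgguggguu
miR-144 (chr11:78073047-78073066, plus strand): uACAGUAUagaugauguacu
miR-451 (chr11:78073186-78073207, plus strand): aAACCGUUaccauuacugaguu
miR-144 and miR-451 lie beside each other on the same strand, and their seeds differ. No seed was shared among these 9 miRNAs.

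The number of miRNAs called as different between day 1 and day 3 in exposed lungs was 0. Signals were scaled to each array's 75th percentile over 156 bright probes and taken to log2, and 172 miRNAs (171 of mouse and 1 of a virus) that were above background on at least 4 arrays of a group were tested with limma. At a Benjamini-Hochberg adjusted p under 0.05, 0 of 172 were called (0%), and the smallest adjusted p was 0.978. At an unadjusted p under 0.05, 1 was higher (0.581%) and 2 were lower (1.16%) at day 3, 3 in all (1.74%). Of the 171 mouse miRNAs, 92 had a higher and 79 a lower mean at day 3. The median log2 change over all miRNAs tested was 0.012, and 159 of 172 lay within 0.5 of 0.

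The precision of these changes sets what could have been seen. The median standard error was 0.19 log2 units. For 147 of 172 miRNAs (85.5%) the 95% interval of the change stayed within 2-fold in both directions, which bounds the change of each of them by itself and does not show that it was 0. For the others, which include miR-223, miR-449a, miR-155 and the muscle miRNAs, the interval reached past 2-fold. The changes spread further downward than upward, with a 5th percentile of -0.52 and a 95th percentile of 0.20. Part of the lower tail was of dim miRNAs whose change depends on the processing. After normexp background correction miR-155 and miR-467a* differed by -0.064 and -0.051, while miR-223 and miR-1 differed by -0.57 and -0.70. There was no miRNA for which the 6 arrays of day 1 and the 4 arrays of day 3 did not overlap (0 of 172, 0%).

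Vehicle lungs served as the background for time after instillation of the fluid without particles. Between vehicle lungs of day 1 and day 3, limma called 0 of 172 miRNAs (0%, smallest adjusted p = 0.418), and 9 had an unadjusted p under 0.05 (5.23%), 1 higher (0.581%) and 8 lower (4.65%). The difference between the exposed course and the vehicle course was tested directly in the same model. It gave 0 calls (0%, smallest adjusted p = 0.990), with 4 at an unadjusted p under 0.05 (2.33%), 3 of them higher (1.74%) and 1 lower (0.581%) in the exposed course.

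The brightness of the exposed arrays of both days overlapped. Before scaling, the 75th percentile of signal averaged 654 ± 95.6 intensity units (SD, n = 6) at day 1 and 628 ± 117 (SD, n = 4) at day 3, a 1.05-fold difference of the log2 means (exact permutation p = 0.676, two-sided, where the smallest possible is 0.00952). The number of mouse miRNAs above background averaged 157 ± 16.4 (SD, n = 6) and 144 ± 15.7 (SD, n = 4) per array (exact permutation p = 0.276, two-sided). In vehicle lungs the 75th percentile ran the other way, from 472 ± 288 (SD, n = 6) to 709 ± 310 (SD, n = 6) (exact permutation p = 0.162), and its part in the difference between courses was not tested. The 33 arrays were spread over 9 slides, scanned on 5 days. Slides 1 and 4 held exposed lungs of both days, 1 of each. Slide 1 stood apart for several miRNAs: miR-126-5p, the minor arm of the endothelial miR-126 hairpin, lay at 1.09 to 1.52 on its 4 arrays and at 1.91 to 4.84 on the other 18 arrays of days 1 and 3. For that miRNA the exposed change was -0.057 with slide 1 and 0.26 without it. For the miRNAs described at length, the value without the 4 arrays of slide 1 is given beside the result.

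The tissue label was checked against cell type miRNAs. The endothelial miR-126-3p was among the brightest, at 12.62 at day 1 and 12.67 at day 3 on the log2 scale, and the epithelial miR-200a, miR-200b and miR-200c lay between 8.26 and 8.59. Of 5 brain miRNAs, 0 were above background on any exposed array. The liver miRNA miR-122 was scattered in every group, from 2.10 to 6.39 at day 1 and from 1.52 to 6.51 at day 3, with a log2 change of -0.52 ± 1.35 (SE), and its source was not tested.

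miR-223 had the smallest p of all. It restrains the production and activation of granulocytes. At day 1 its log2 signal ran from 8.07 to 9.76 with a median of 9.17 (n = 6), and the 4 lungs of day 3 were at 8.47, 8.42, 8.51 and 8.24. Of the 6 lungs of day 1, 5 lay at 9.01 or above and so above every lung of day 3, while replicate 3, the array on slide 1, lay below all of them. The means were 9.08 ± 0.56 (SD) and 8.41 ± 0.12 (SD), a log2 change of -0.67 ± 0.24 (SE), or 1.59-fold lower at day 3, with a 95% interval of -1.15 to -0.18 (limma unadjusted p = 0.0085, adjusted p = 0.978). Vehicle lungs lay at 8.26 ± 0.27 (SD) and 8.21 ± 0.42 (SD) on the same days, a log2 change of -0.053. The day 3 exposed lungs were within the range of vehicle lungs of that day, 7.74 to 8.87.

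The call for miR-223 turned on a single array. Without replicate 3 of day 1 its log2 change was -0.87 with a limma adjusted p of 0.0475, the only call of that fit, and without all arrays of slide 1 it was -0.89 with an adjusted p of 0.0545. Within slide 1 the exposed lung of day 3 was 0.40 higher than that of day 1, and within slide 4 the difference was -0.78. The vehicle pairs of the same slides differed by 0.82 and -0.70, so on slide 4 a vehicle pair showed a step of nearly the same size. With slide as a fixed block the change was -0.50 (adjusted p = 0.993). Without replicate 3, 3 of 172 miRNAs had exposed days that did not overlap (1.74%), with miR-223 and miR-155 lower (1.16%) and miR-23b higher (0.581%). Without slide 1 there were 14 (8.14%), 8 higher (4.65%) and 6 lower (3.49%), and both sets were examined after the data were seen. A further, dimmer probe of miR-223 gave -0.49. The difference between the exposed and the vehicle course was -0.62 ± 0.32 (SE, limma unadjusted p = 0.063, adjusted p = 0.990).

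**Figure D1:**
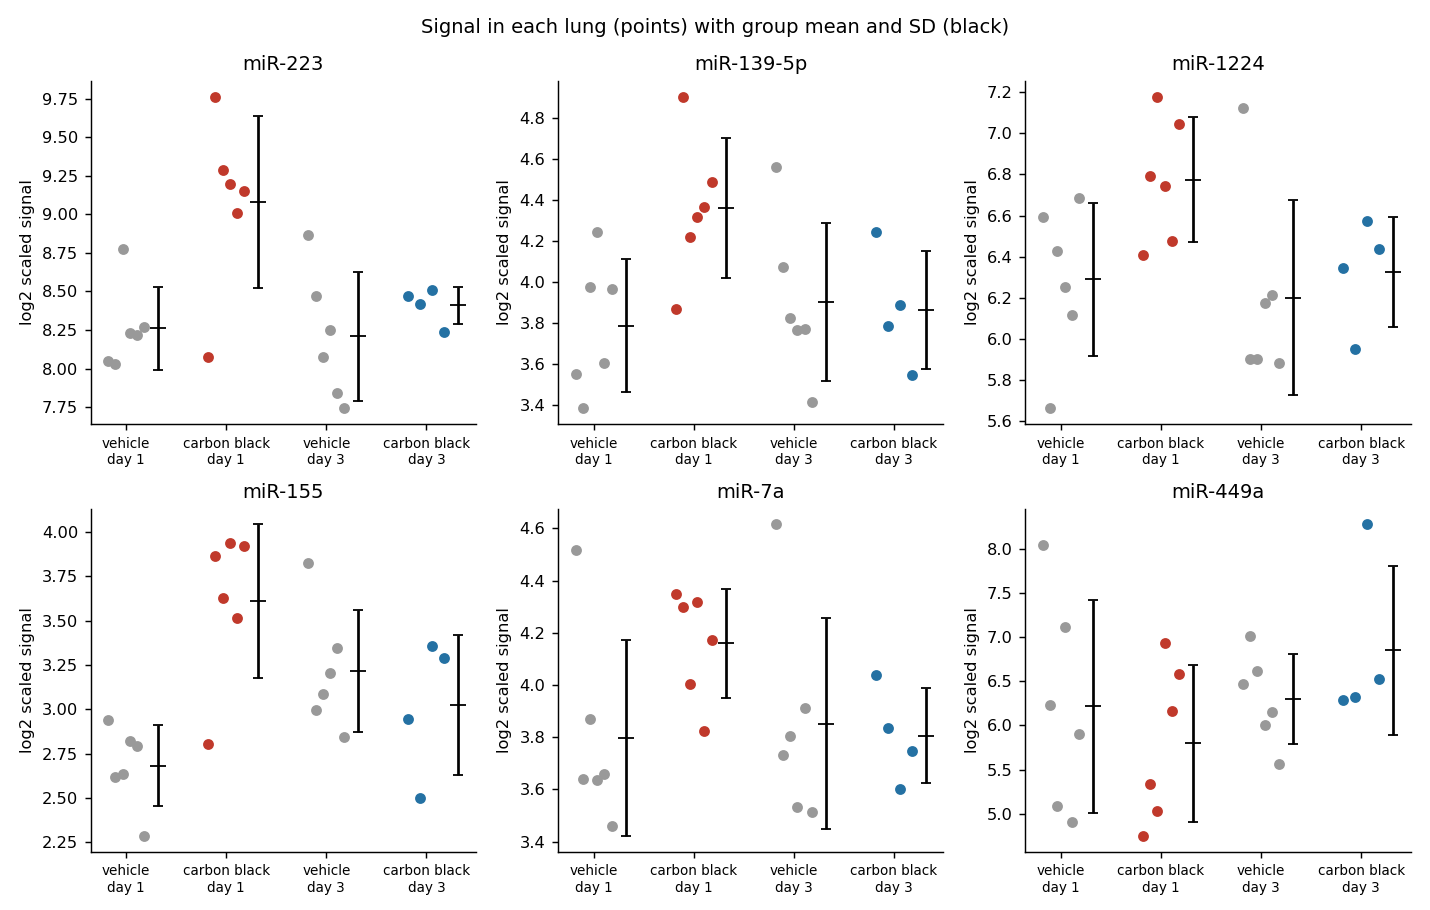
Log2 scaled signal (vertical axis) of 6 miRNAs in each lung of the vehicle and carbon black groups at days 1 and 3, with 1 point per mouse and the group mean and SD in black beside the points. For miR-223, 5 of 6 exposed lungs of day 1 lie above the 4 of day 3, and 1 lies below them.

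The other members of the myeloid list, both arms of miR-142, were also lower on average at day 3. miR-142-3p ran from 9.10 to 10.53 at day 1 and was 9.12, 9.87, 10.09 and 10.11 at day 3, and the groups overlapped almost wholly (log2 change -0.25 ± 0.34, SE). miR-142-5p differed by -0.20 ± 0.24 (SE) in exposed and by 0.42 in vehicle lungs, a difference of courses of -0.62 ± 0.32 (SE, limma unadjusted p = 0.061). Of the 3 members, 0 passed the threshold, and their median was -0.25 against 0.014 over the 171 mouse miRNAs and 0.25 for the same 3 in vehicle lungs. The summed signal of the list was 866 to 2298 on the linear scale at day 1 and 968 to 1517 at day 3. Without day 3 replicate 4, the array on slide 1, the change of miR-142-3p was -0.025. With slide as a fixed block that of miR-142-5p was 0.0094, with the sign turned, and without slide 1 the arms differed by -0.21 and -0.30. The arms of miR-142 come from 1 precursor and are not independent. The lowest values of day 1 for miR-142-3p and miR-223 were both in replicate 3.

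miR-155 is switched on when macrophages and lymphocytes are activated. It was above background in 4 of 6 exposed lungs at day 1 and in 0 of 4 at day 3. Its log2 signal ran from 2.80 to 3.94 with a median of 3.75 at day 1 (n = 6), and was 2.95, 2.50, 3.36 and 3.29 at day 3. Again 5 of the 6 day 1 lungs lay above every day 3 lung, and the exception was replicate 3. Because no array of day 3 was above background only a bound holds, at least 1.02-fold lower at day 3, and the fitted log2 change was -0.59 ± 0.33 (SE, limma unadjusted p = 0.086, adjusted p = 0.978). Without slide 1 the fitted change was -0.72 (adjusted p = 0.885), and with slide as a fixed block it was -0.26. The exposed change was -0.064 after normexp background correction, -0.089 in the authors' series table and -1.72 with the scanner's total gene signal. Within slides 1 and 4 it was 0.15 and -0.27. In vehicle lungs the mean was 2.68 at day 1 and 3.22 at day 3, with 0 and 1 of 6 lungs above background. The difference of courses therefore rests mostly on signals not well above background. The fitted difference of courses was -1.12 ± 0.44 (SE, limma unadjusted p = 0.017, adjusted p = 0.990). This value depends on the scaling and background method: it was -3.64 with the scanner's total gene signal (adjusted p = 0.0364) and 0.40 after normexp background correction. Within slides 1 and 4 the difference of courses was -0.74 and -0.72.

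The remaining miRNAs of the inflammation list had higher signals and smaller differences. miR-21, which is raised in many inflamed and fibrotic tissues, ran from 11.76 to 12.67 at day 1 and was 11.38, 12.11, 12.42 and 12.37 at day 3 (log2 change -0.26 ± 0.25, SE). The lowest lung of either day was the one on slide 1. miR-146a and miR-146b, feedback regulators of NF-kB signalling, share their seed and differ near the 3′ end.
miR-146a: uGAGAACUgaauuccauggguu
miR-146b: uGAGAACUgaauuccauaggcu
Their log2 changes were 0.046 ± 0.20 (SE) and -0.18 ± 0.36 (SE). miR-146b was 4.76 in the day 3 lung on slide 1 and 6.32 to 6.84 in the other 3, so that array set the sign of its mean change. Without it miR-146b differed by 0.26 and miR-21 by -0.031, and without all of slide 1 by 0.11 and -0.14. Of the 12 miRNAs of this list on the array, 4 were above background in exposed lungs and 4 were tested, 1 higher and 3 lower with 0 past the threshold, and their median was -0.22. That median was 0.083 without day 3 replicate 4, with the sign turned. The vehicle median for the same 4 was -0.031.

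A few further miRNAs lay lower at day 3 in most lungs. miR-139-5p, which is often reduced in tumours, was above background in 6 of 6 lungs at day 1 and in 2 of 4 at day 3. It ran from 3.87 to 4.90 with a median of 4.34 (n = 6) and was 4.24, 3.78, 3.89 and 3.55 at day 3. Of the day 1 lungs 4 lay above every day 3 lung, and the log2 change was -0.50 ± 0.24 (SE, limma unadjusted p = 0.046, adjusted p = 0.978). The change was -0.086 after normexp background correction and -0.066 in the authors' series table. Within slides 1 and 4 it was 0.37 and -0.34, and with slide as a fixed block -0.26. Without slide 1 it was -0.72 (adjusted p = 0.605).

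miR-1224 ran from 6.41 to 7.18 with a median of 6.77 at day 1 (n = 6) and was 6.35, 5.95, 6.58 and 6.43 at day 3. Its log2 change was -0.45 ± 0.25 (SE), a further probe gave -0.46, and 4 of the 6 day 1 lungs lay above every day 3 lung. With slide as a fixed block the change was -0.27. miR-7a, which is made from several loci and is best known from neuroendocrine tissue, ran from 3.82 to 4.35 with a median of 4.24 and was 4.04, 3.84, 3.60 and 3.75 at day 3 (log2 change -0.35 ± 0.20, SE). It was lower at day 3 within both shared slides, by -0.31 and -0.40, and was 3.80 and 3.85 in vehicle lungs. The change of miR-7a was -0.033 after normexp and -0.053 in the authors' series table. Without slide 1 the changes were -0.53 for miR-1224 and -0.39 for miR-7a. For all 3 the adjusted p was 0.978, and the means of exposed lungs at day 3 (3.86 for miR-139-5p, 6.33 for miR-1224 and 3.81 for miR-7a) stood beside vehicle means of 3.79 to 3.90, 6.20 to 6.29 and 3.80 to 3.85 over both days.

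**Figure D2:**
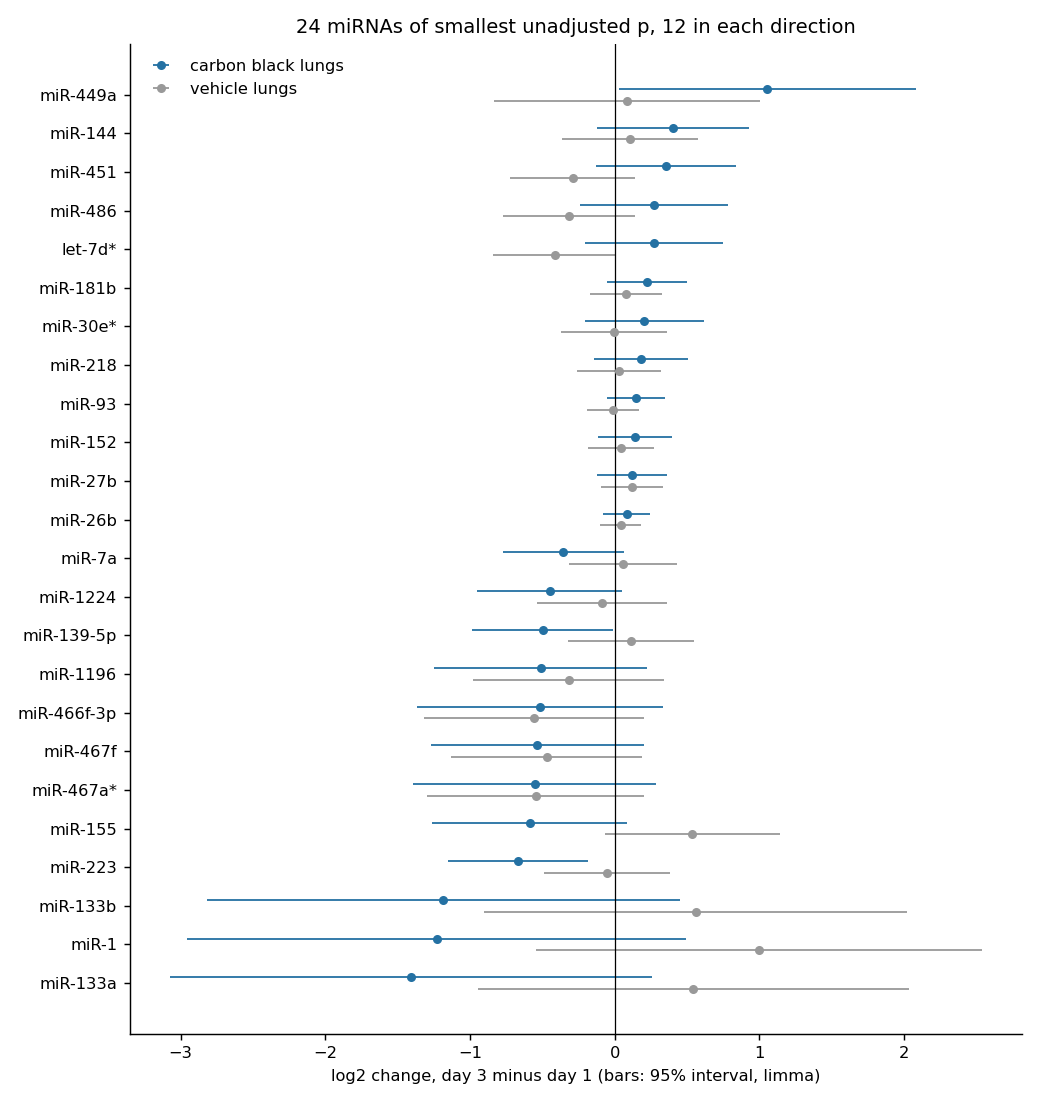
Log2 change from day 1 to day 3 (horizontal axis) with its 95% interval from limma for the 24 miRNAs of smallest unadjusted p, 12 in each direction, in carbon black lungs (blue) and vehicle lungs (grey). In carbon black lungs the interval leaves out 0 for miR-223, miR-139-5p and miR-449a, and it is widest for miR-1, miR-133a and miR-133b.

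miR-449a had the largest increase in mean. It belongs to the family that promotes the formation of motile cilia, and its seed is that of miR-34a, a p53 target, and of miR-34b-5p.
miR-449a: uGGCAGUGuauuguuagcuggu
miR-34a: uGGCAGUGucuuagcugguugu
miR-34b-5p: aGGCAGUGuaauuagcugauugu
At day 1 miR-449a ran from 4.75 to 6.93 with a median of 5.75 (n = 6), and at day 3 it was 6.28, 6.32, 8.27 and 6.53. The lung at 8.27 (replicate 16, slide 4) stood apart, and the other 3 lay within the day 1 range. The log2 change was 1.05 ± 0.50 (SE, 95% interval 0.027 to 2.08, limma unadjusted p = 0.045, adjusted p = 0.978), and without replicate 16 it was 0.58. Without slide 1 it was 1.03.

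Within slides 1 and 4 miR-449a was 1.54 and 3.25 higher at day 3, and the vehicle pairs of these slides differed by -1.57 and 1.52. Vehicle lungs spread as widely, from 4.91 to 8.05 at day 1. Its relatives with the same seed had mean differences near or below 0. miR-34b-5p ran from 7.78 to 9.25 at day 1 and was 8.97, 7.13, 8.53 and 7.70 at day 3, a log2 change of -0.33 ± 0.35 (SE). miR-34c differed by -0.34 ± 0.34 (SE), and 7 of the 10 exposed lungs held the same rank for miR-34b-5p and miR-34c, which come from 1 transcript. Without day 3 replicate 11 they differed by -0.013 and -0.018, and without slide 1 by -0.74 each. Within slides 1 and 4 both were higher at day 3, miR-34b-5p by 1.13 and 0.75 and miR-34c by 1.12 and 0.69. miR-34a differed by 0.075 ± 0.15 (SE). Of the 7 ciliated cell miRNAs on the array 3 were tested, 1 higher and 2 lower with 0 past the threshold, and the list's summed signal was 407 to 1121 at day 1 and 318 to 950 at day 3.

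The red cell miRNAs were all higher on average at day 3. miR-451, which is cut by Argonaute itself and not by Dicer, ran from 12.14 to 13.09 with a median of 12.57 at day 1 (n = 6), and was 12.46, 13.61, 12.60 and 13.01 at day 3. miR-144 ran from 7.77 to 8.44 with a median of 8.33 and was 8.06, 9.04, 8.63 and 8.77. miR-486 ran from 4.79 to 5.59 with a median of 5.45 and was 4.97, 6.06, 5.50 and 5.96. In each of the 3 the highest lung was replicate 11 of day 3 and the lowest was replicate 7 of day 1, while replicate 4 was the lowest of day 3.

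The log2 changes were 0.35 ± 0.24 (SE) for miR-451, 0.40 ± 0.26 for miR-144 and 0.27 ± 0.25 for miR-486, each with a limma adjusted p of 0.978. Without replicate 11 they were 0.12, 0.26 and 0.13. Without slide 1 they were 0.61, 0.60 and 0.53, each with an adjusted p of 0.885. The list's median was 0.35 in exposed lungs, 0.13 without replicate 11, and -0.29 in vehicle lungs, and for miR-451 the difference of courses was 0.65 ± 0.32 (SE, limma unadjusted p = 0.051, adjusted p = 0.990) and -0.088 without scaling. Within slides 1 and 4 the change of miR-451 was -0.63 and -0.11, so neither shared slide showed the higher value at day 3. The summed signal of the 3 was 4760 to 9094 at day 1 and 5932 to 13119 at day 3. The part of blood retained in the lung in this result was not tested.

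The largest decreases in mean were those of the striated muscle miRNAs, and they came from a few lungs. miR-1 ran from 4.47 to 9.39 with a median of 6.45 at day 1 (n = 6) and was 5.82, 4.19, 5.17 and 5.99 at day 3. miR-133a ran from 1.89 to 6.71 with a median of 3.45, above background in 3 of 6 lungs, and was 2.52, 1.59, 1.86 and 2.99 at day 3, above background in 0 of 4. miR-133b ran from 2.61 to 7.59 with a median of 4.27 and was 3.80, 2.52, 3.29 and 3.82. The 10 exposed lungs stood in the same order for miR-1 and miR-133b, with replicate 19 of day 1 highest.

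The log2 changes were -1.23 ± 0.84 (SE) for miR-1, -1.41 ± 0.82 for miR-133a, for which the bound was at least 1.05-fold lower, and -1.19 ± 0.80 for miR-133b, each with a limma adjusted p of 0.978. Without replicate 19 they were -0.66, -0.79 and -0.58, and without slide 1 they were -1.70, -1.81 and -1.61. That replicate shared slide 5 with vehicle replicate 17 of day 1, in which miR-1 was 9.51, the highest of all 22 lungs of both days. In vehicle lungs the means ran the other way, from 5.69 to 6.68 for miR-1, and the difference of courses for miR-1 was -2.23 ± 1.13 (SE, limma unadjusted p = 0.059, adjusted p = 0.990). Of the 8 striated muscle miRNAs on the array 3 were above background in exposed lungs, and their summed signal was 32.0 to 971 at day 1 and 26.9 to 85.5 at day 3, against 27.3 to 1019 and 67.6 to 444 in vehicle lungs. Whether pieces of muscle or heart were taken with some lungs was not tested.

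**Figure D3:**
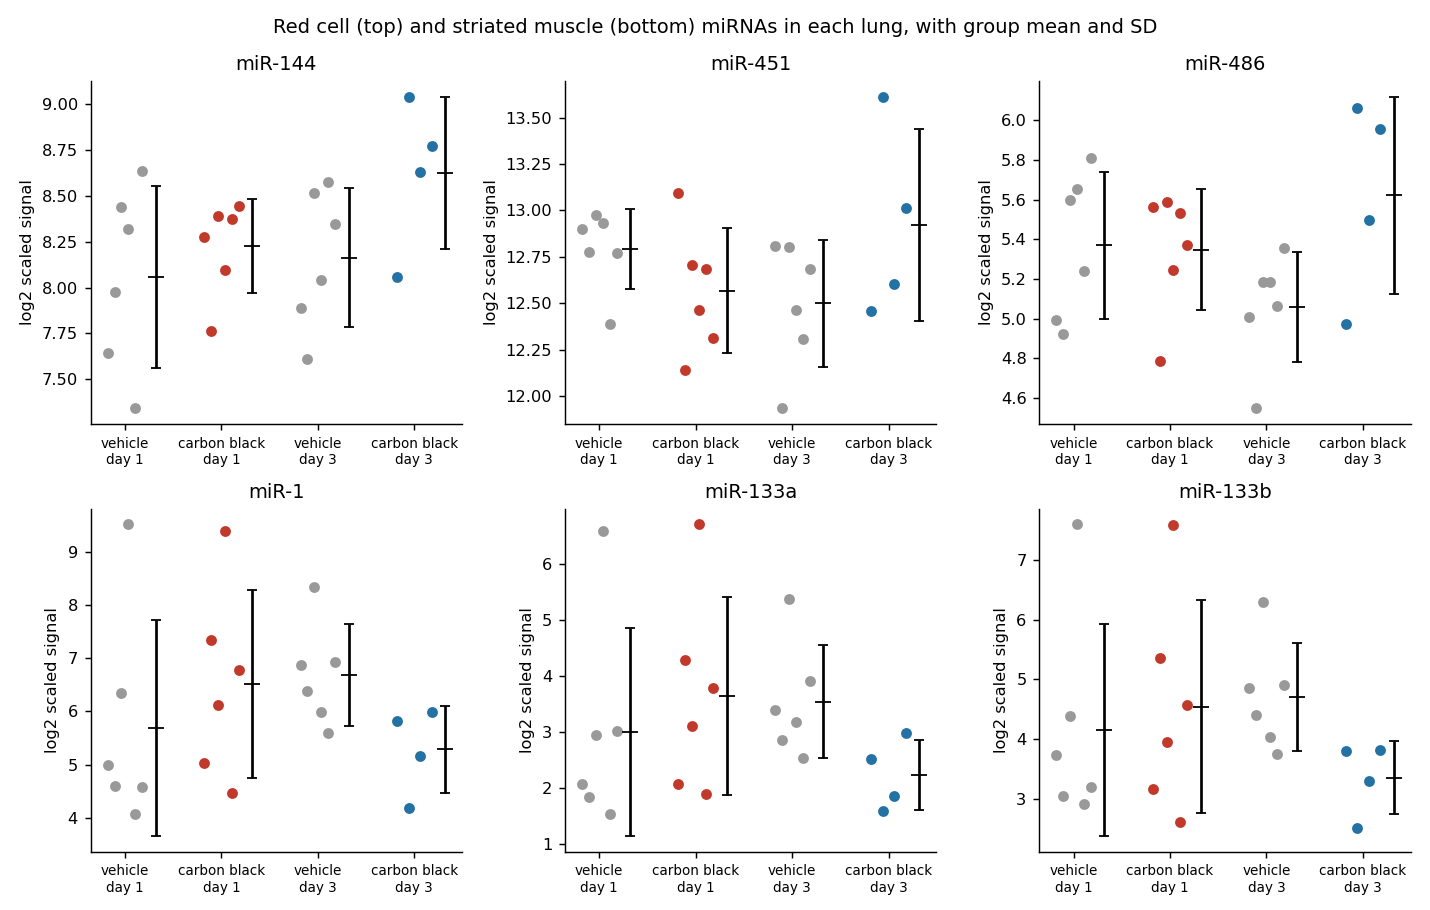
Log2 scaled signal (vertical axis) of the red cell miRNAs (miR-144, miR-451, miR-486) and the striated muscle miRNAs (miR-1, miR-133a, miR-133b) in each lung of the 4 groups, with 1 point per mouse and the group mean and SD in black. 1 exposed and 1 vehicle lung of day 1 stand above the others for the muscle miRNAs, and 1 exposed lung of day 3 is highest for each red cell miRNA.

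The other miRNAs with the smallest p on the higher side had small differences. miR-181b, which acts in lymphocyte development, ran from 3.90 to 4.24 at day 1 and was 3.99, 4.32, 4.26 and 4.43 at day 3, a log2 change of 0.22 ± 0.14 (SE). The passenger strand let-7d* ran from 5.35 to 5.76 and was 5.94, 5.65, 5.71 and 5.67, and 5 of 6 lungs of day 1 lay below every lung of day 3. Its log2 change was 0.27 ± 0.23 (SE) and the difference of courses 0.69 ± 0.31 (SE, limma unadjusted p = 0.036, adjusted p = 0.990). Averaged over its probes the change was -0.040, and the difference of courses without scaling was -0.047. The other 6 of the 12 on this side, miR-93, miR-218, miR-152, miR-26b, miR-30e* and miR-27b, had log2 changes of 0.082 to 0.20, and each interval stayed within 2-fold.

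On the lower side the remaining 4 of the 12 were also dim. miR-467f, miR-467a* and miR-466f-3p belong to families of related, repeat-rich hairpins, and miR-1196 is a less studied entry. Their fitted log2 changes were -0.51 to -0.55, and those in vehicle lungs were -0.32 to -0.56, in the same direction. The exposed changes were -0.0065 to -0.054 after normexp, -1.23 to -2.41 with the total gene signal and -0.32 to -0.48 without slide 1, so their size depends on the processing. miR-466f-3p was above background in 6 of 6 lungs at day 1 and in 1 of 4 at day 3, miR-467f and miR-467a* in 4 and 1, and miR-1196 in 2 and 0, for which no fold is given because day 1 did not exceed the background bound. For each of the 4, the lowest exposed lung was the one of day 3 on slide 1.

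The share of lungs above background was lower at day 3 for 42 and higher for 6 of the 171 mouse miRNAs tested, and equal for 123. The unequal group sizes and the filter tilt this count. A miRNA could enter the test through 4 of 6 lungs of day 1, but through day 3 only with 4 of 4. Shares of 5 of 6 and 3 of 4 lungs, as for miR-181b, count as lower at day 3 though each day missed 1 lung. The background flag is set on each array before scaling, and the day 3 arrays had fewer miRNAs above it, by 12.6 per array on average. The share was lower by 0.5 or more for 7 of the 611 mouse miRNAs and higher by as much for 0. The 7 were miR-139-5p (6 of 6 and 2 of 4 lungs), miR-466f-3p (6 and 1), miR-375 (5 and 1), and miR-133a, miR-155, miR-207 and miR-466i (3, 4, 4 and 4 of 6 lungs at day 1 and 0 of 4 at day 3). There was no miRNA above background on every array of 1 exposed day and on none of the other. Over both days 119 mouse miRNAs were above background on all 10 arrays, 189 on at least 1 and 422 on none, and 20 of the 189 were on too few arrays to be tested. miR-135b, a miRNA raised in inflamed lung and epithelial tumours, was above background on 0 exposed and 0 vehicle arrays of either day.

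**Figure D4:**
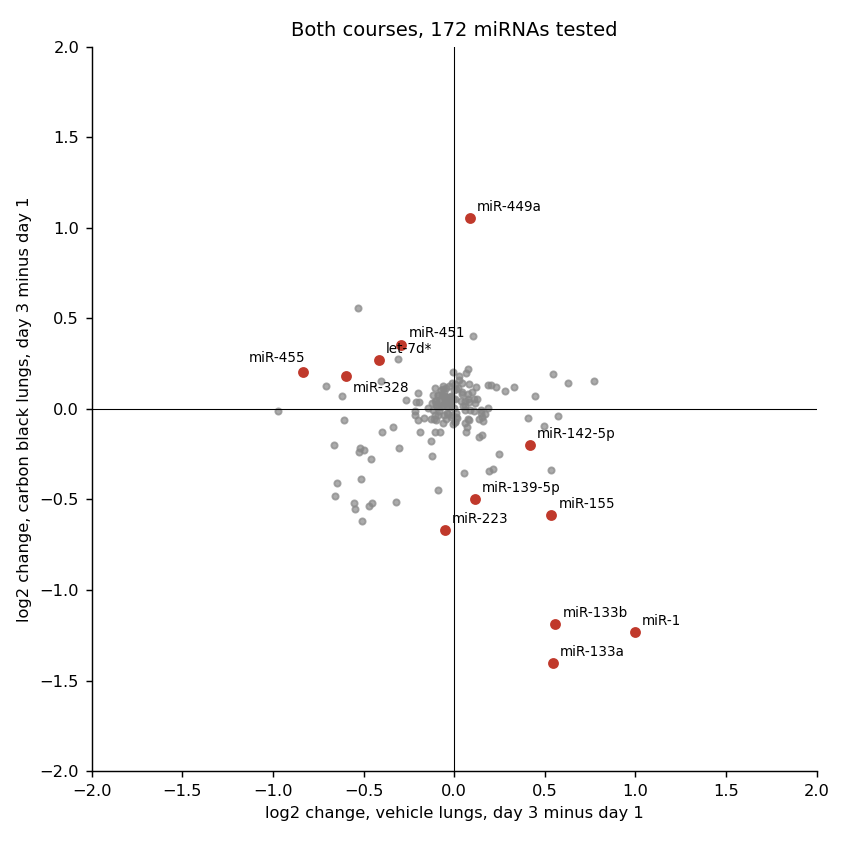
Log2 change from day 1 to day 3 in vehicle lungs (horizontal axis) and in carbon black lungs (vertical axis) for the 172 miRNAs tested, with 12 of the miRNAs described in the text in red. Most points lie near 0 on both axes. miR-1, miR-133a, miR-133b and miR-155 lie lower at day 3 in carbon black lungs and higher in vehicle lungs.

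Among the miRNAs with the smallest p for the difference of courses, miR-328, miR-455 and let-7d* were set by vehicle lungs as much as by exposed ones. The difference for miR-223, described above, came mostly from exposed lungs. miR-328 ran from 4.64 to 5.01 at day 1 and was 4.93, 4.98, 5.22 and 5.09 at day 3 in exposed lungs, a log2 change of 0.18 ± 0.23 (SE). In vehicle lungs its mean went from 5.21 to 4.61, with 1 lung as low as 3.34. The difference was 0.78 ± 0.31 (SE, limma unadjusted p = 0.017, adjusted p = 0.990), and it was 0.051 without scaling and 0.086 in the authors' series table. miR-455, which is linked to cartilage and brown fat, had changes of 0.20 ± 0.33 (SE) in exposed and -0.84 ± 0.30 in vehicle lungs, a difference of 1.04 ± 0.44 (SE, limma unadjusted p = 0.026, adjusted p = 0.990). Its exposed lungs overlapped between the days, 5.13 to 5.80 and 5.54 to 6.11. The difference of courses of miR-455 was 0.30 without scaling and 0.28 in the authors' series table. For miR-328, miR-455 and let-7d* the lowest vehicle lung of day 3 was replicate 25, at 3.34, 3.34 and 4.66. With 1 array left out at a time, their differences of courses ran from 0.53 to 0.94, 0.66 to 1.25 and 0.53 to 0.87.

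The large miRNA families of the lung had small mean differences between the days. The let-7 family, whose members restrain growth genes, was bright (let-7f 12.20 at day 1 and 12.22 at day 3). Of its 11 tested members 7 were higher and 4 lower with 0 past the threshold, from -0.064 to 0.27 and with a median of 0.0086. The miR-17-92 cluster and its paralogs, which promote proliferation, had 3 higher and 7 lower of 10, with a median of -0.017. 3 of them share a seed, and their log2 changes were between -0.024 and 0.15.
miR-93: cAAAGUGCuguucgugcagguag
miR-106b: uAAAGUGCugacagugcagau
miR-20a: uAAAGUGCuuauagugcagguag

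The miR-29 family, which targets collagens and other matrix genes, had 1 higher and 4 lower of 5 tested, with a median of -0.046, and miR-29a differed by -0.077 ± 0.15 (SE). The miR-30 family had 4 higher and 5 lower of 9 (median -0.036). The miR-15/16 family, which restrains the cell cycle, had 6 higher of 6, all between 0.020 and 0.12 (median 0.040). The miR-23/27/24 clusters had 5 higher and 2 lower of 7 (median 0.074), miR-26 and miR-101 3 higher and 1 lower of 4 (median 0.055), and the family of miR-99, miR-100 and miR-125 2 higher and 3 lower of 5 (median -0.013). In each of these lists 0 passed the threshold, and the medians compare with 0.014 over all 171 mouse miRNAs. Over all lists with a median, leaving out 1 array turned its sign in 14 of 24, among them let-7, miR-17-92, miR-29, miR-30 and miR-15/16.

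Mean differences were also small for most miRNAs of structural cells. Of the epithelial list, 7 of 13 on the array were tested, 1 higher and 6 lower (median -0.076), and miR-200a was 8.59 at day 1 and 8.51 at day 3, a log2 change of -0.076 ± 0.12 (SE). miR-375, a miRNA of secretory and neuroendocrine epithelium, differed by -0.33 ± 0.36 (SE). The fibroblast miRNAs miR-199a-3p, miR-199a-5p, miR-199b* and miR-214 differed by 0.0045 to 0.065, and miR-143, made in smooth muscle, by -0.025 ± 0.30 (SE). miR-126-3p differed by 0.055 ± 0.11 (SE).

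Of the lymphoid list, 4 of 10 were tested, 3 higher and 1 lower (median 0.036), and miR-181a was 5.85 and 5.86. miR-221 and miR-222 differed by 0.20 ± 0.22 and -0.041 ± 0.35 (SE). Of 8 p53-responsive miRNAs, 4 were tested, 1 higher and 3 lower (median -0.18), among them the 2 ciliated cell miRNAs described above. The median of the 4 was -0.015 without day 3 replicate 11. miR-210, induced by low oxygen, differed by 0.14 ± 0.44 (SE). The 3 tested entries that are doubtful as miRNAs were all lower (median -0.099). Of 64 miRNAs of the imprinted Dlk1-Dio3 cluster 2 were above background in an exposed lung and 0 were tested, and of 115 passenger strands 18 were tested, 12 higher and 6 lower (median 0.041). The number past the threshold was 0 in each list.

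**Figure D5:**
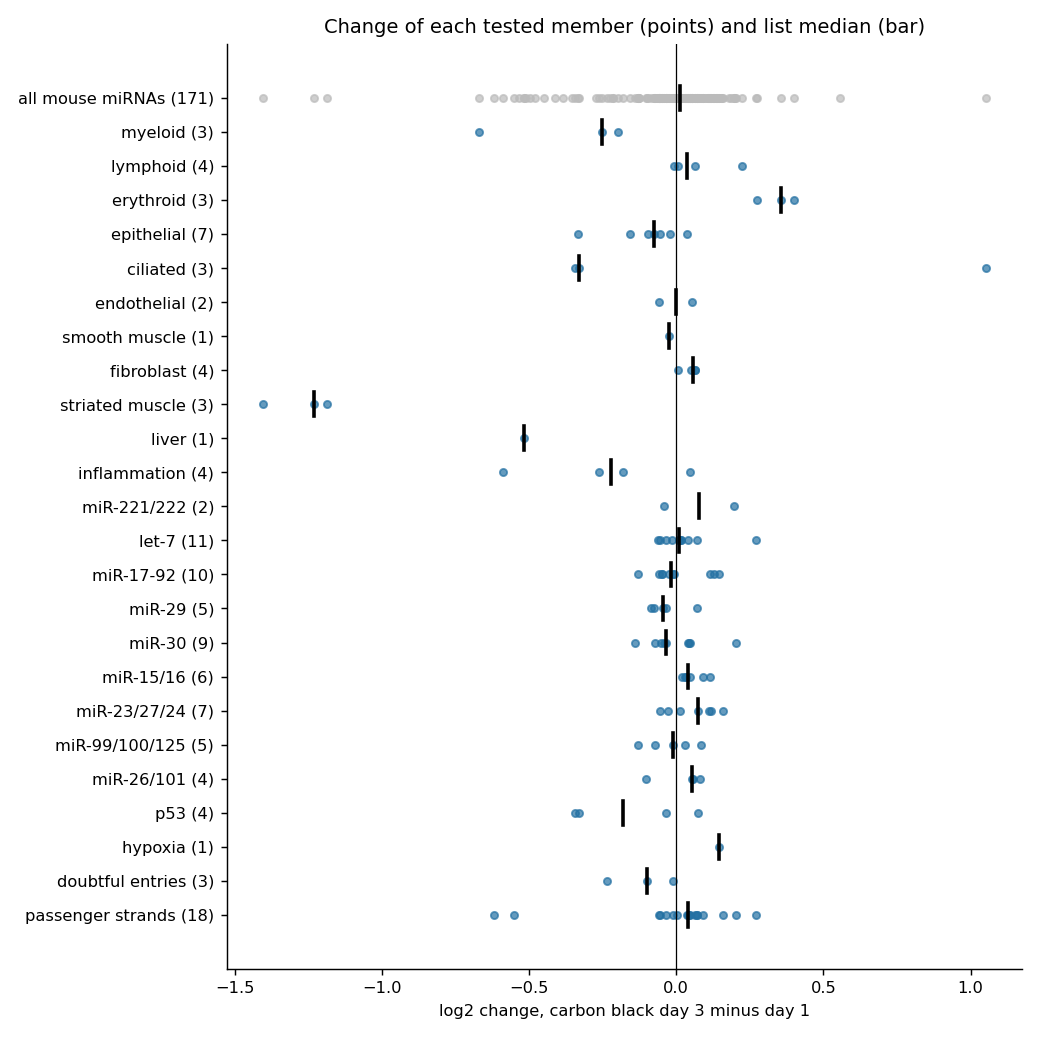
Log2 change from day 1 to day 3 in carbon black lungs (horizontal axis) of each tested member of each list, with the number tested in brackets and the list's median as a black bar. The widest departures from 0 are those of the striated muscle miRNAs, miR-449a, miR-223, the passenger strand miR-467b* and miR-155. The members of the large families lie close to 0.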

How the data were processed

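RNA enriched in its small fraction carried the dye Cy3 and was read on 1-colour Agilent arrays for mouse miRNAs (per the labels). In the deposited scanner files each spot has an intensity on a linear scale, background-subtracted by Feature Extraction 10.7.3.1, per the file headers. The authors' series table holds log2 values. Against log2 median signals of the same arrays their correlation was 0.986 to 0.994, and the columns had medians of 5.41 to 5.43. Their centring and scaling are unknown, and they served only as an alternative. The sources used here name no miRNA annotation release.

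Control spots and spots with outlier flags (2.30%) were left out, and 0 probes were saturated. The processed signal was averaged per probe, scaled to the 75th percentile over the 156 probes above background on all 33 arrays, floored at 1 and converted to log2. A miRNA took the value of its brightest probe. For 80 miRNAs a further probe was above background on every exposed array of both days, and for 7 of them its change had the opposite sign. A miRNA was above background on an array when the scanner flagged most spots of at least 1 of its probes so. Bounds set the brighter group's mean against the mean over dimmer arrays of the higher of the lowest signal above background and the probe's own.

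limma 3.58.1 (R 4.3.3) was fitted to 6 group means over 33 arrays with an intensity trend, and p-values were adjusted by Benjamini-Hochberg over 172 miRNAs, with a threshold of 0.05. The fit was checked on simulated data. Named miRNAs were the 12 of smallest p in each direction, the 8 of smallest p for the difference of courses, up to 4 of the brightest members of each list, and miR-135b. miR-207, miR-466i and the miRNAs whose share above background changed most were singled out after their values were seen. The comparison and the lists were chosen with earlier results of these data known. The scanner files used here give a median and no mean spot signal, so the normexp alternative used the median. Arrays are single mice, and their number limits the precision. Some list members and miRNAs are named without a sequence.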

Additional observations from a re-analysis of the deposited data

Results flagged for a closer look

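In 58 groups of 4 or 6 exposed arrays, 4 held a lung whose gap to its nearest neighbour exceeded Dixon's 95% critical value, and chance flags about 1 group in 20. These groups covered the miRNAs named by p or for the difference of courses, plus array brightness and the number above background. The miRNAs named only from lists were not screened. miR-449a was 8.27 in replicate 16 of the exposed lungs of day 3, where the other 3 lay at 6.28 to 6.53. miR-26b was 9.59 in the same lung, against 9.81 to 9.85. miR-27b was 8.51 in replicate 4 of the exposed lungs of day 3, the array on slide 1, against 8.91 to 8.97. miR-155 was 2.80 in replicate 3 of the exposed lungs of day 1, also on slide 1, against 3.51 to 3.94 in the other 5.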

How the results depend on the processing

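Between exposed lungs of day 3 and day 1, the count of calls was 0 under each alternative of scaling, background correction, floor, probe summary, filter, variance model and block that was run. Leaving out 1 array at a time gave 0 to 1, and the 1 was miR-223 without replicate 3 of day 1. Across those fits miR-223 ranged from -0.87 to -0.53 on the log2 scale. The difference of courses had 1 call with the total gene signal (miR-155). For array brightness, leaving out 1 array gave log2 differences of -0.17 to 0.050, the latter, with the sign turned, without replicate 16 of day 3. Signs also turned for the difference of courses of miR-155 (0.40) and miR-142-5p (0.0047) with normexp, and of let-7d* (-0.047) and miR-451 (-0.088) without scaling. They turned for the exposed change of miR-26b in the series table (-0.013) and of let-7d* averaged over probes (-0.040). With slide as a fixed block the exposed change of miR-142-5p turned (0.0094). The cause of these turns was not tested. Of 917 comparisons of the miRNAs named by p under an alternative other than a single slide, 909 kept direction and side of the threshold. Those miRNAs were chosen by p in these same data, so the count is not an independent check. The smallest adjusted p of the main fit was 0.978 for exposed changes and 0.990 for differences of courses (limma), far from the threshold. Within slide 1 the sign of the exposed change turned for miR-144, miR-451, miR-486, miR-93 and miR-27b on the higher side. On the lower side it turned for miR-223, miR-139-5p, miR-155, miR-133a, miR-133b and miR-1. Within slide 4 it turned for miR-451, miR-486, miR-26b and miR-467a*, and on each slide the others of the 24 kept it. For 63 miRNAs named from lists only, 19.2% of 1758 exposed changes under an alternative, single slides included, had the sign turned. Each of the 63 had its sign turned under at least 1 alternative. The sign also turned for 14 of 24 list medians when 1 array was left out, such as inflammation (-0.40 to 0.083).

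Scaling moved the vehicle course most. Its median log2 change was -0.35 with normexp and 0.64 without scaling, and 0.25 with the percentile over all probes, against -0.028, and the exposed median stayed between -0.053 and 0.066. Slide as a random block had a correlation of 0.356. No paired analysis was possible because each replicate number names a single array in the series, and slide was used as a block instead. miRNAs near background limit what low signal can show.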
